A study of Sus scrofa with 20 samples.

Results

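Backfat, the layer of fat under the skin of the back, was split by how much of 1 cartilage matrix gene, CILP2, each animal's library held. Of 20 libraries, 10 stood at 10 CPM (the count scaled to 1e6 counts of its library) or more of CILP2 and 8 stood under 3 CPM, and 2 that lay between were left out, so 18 libraries were compared over all other genes. The groups were selected on the measured count of the CILP2 locus (XLOC_017487), so they are not groups of the study's design, and what follows describes associations between animals. The study took 1 library of polyadenylated RNA from each of 10 female and 10 castrated male Italian Large White pigs, which shared housing and diet and weighed 150 to 160 kg at slaughter. The labels name no treatment other than castration and no altered gene. The high group held females 1, 4, 5, 6, 8 and 9 and castrated males 2, 7, 9 and 10, aged 233 to 250 days. The low group held females 3, 7 and 10 and castrated males 1, 3, 4, 6 and 8, aged 237 to 250 days. The number in each name follows the order of deposit and pairs no animals.

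CILP2 encodes cartilage intermediate layer protein 2, a secreted glycoprotein of the extracellular matrix and a relative of CILP. Cartilage and tendon share much of their matrix. Type II and type XI collagens co-assemble into thin fibrils, aggrecan (ACAN) holds water between them, the pentameric glycoprotein COMP bridges collagen to other matrix proteins, and tenomodulin (TNMD) is a membrane protein of tendon and ligament cells also known from adipose tissue. Backfat lies between the skin and the fascia of the back muscles and is crossed by sheets of connective tissue, so a sample holds fibroblasts, vessels, nerves and immune cells beside adipocytes.

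In the high group CILP2 ran from 11.3 CPM over a median of 21.9 to 29.9 CPM, resting on 360 to 1531 counts per library. In the low group it ran from 0.0257 CPM over a median of 0.120 to 2.51 CPM, resting on 1 to 90 counts. These values chose the groups and carry no test. The low group was itself uneven: 5 libraries, castrated males 8, 4, 6 and 1 and female 10, lay between 0.0257 and 0.162 CPM, while castrated male 3, female 3 and female 7 lay between 1.5 and 2.51 CPM. At the limits, female 7 at 2.51 CPM stood just inside the low group and castrated male 5 at 3.86 CPM just outside it, and female 2 at 4.98 CPM stood below the high group, whose lowest member was castrated male 2 at 11.3 CPM.

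**Figure D1:**
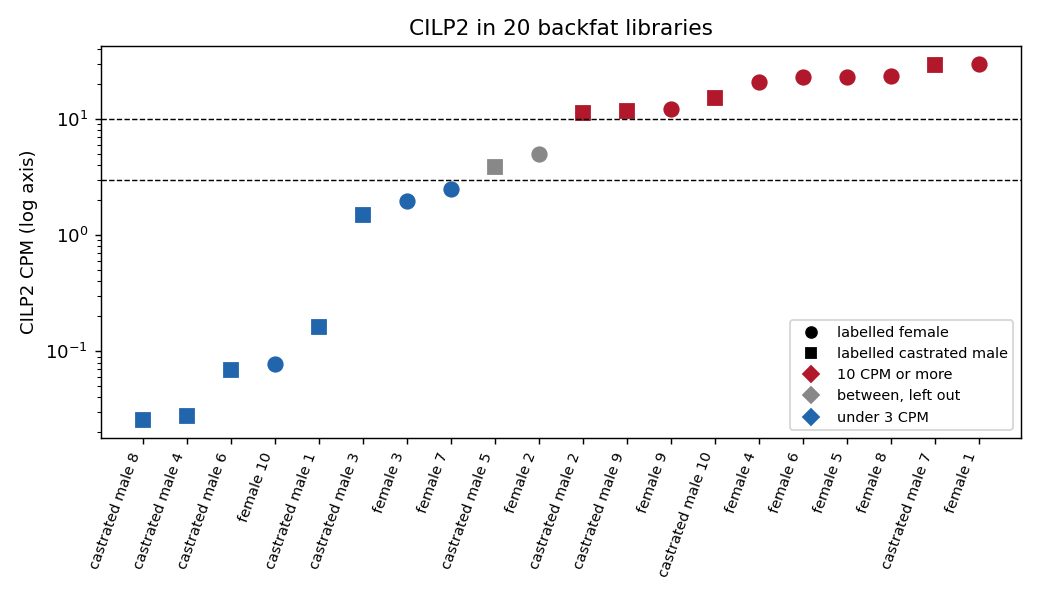
CILP2 level (CPM, log axis) in each of the 20 libraries in rising order, circles for libraries labelled female and squares for those labelled castrated male, with dashed lines at 3 and 10 CPM. The 10 red libraries reach from 11.3 to 29.9 CPM, the 8 blue ones stay at 2.51 CPM or less, and the 2 grey ones lie between.

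In the authors' length-scaled values, CILP2 stood at 2.48 to 7.0 FPKM (reads scaled by transcript length and by library) in the high group and at 0.00636 to 0.600 FPKM in the low group, again without overlap. The deposited isoform table splits the locus into 4 transcripts. The one of highest mean, with no matching reference transcript, had a median of 2.18 FPKM over the high libraries and 0.0202 FPKM over the low ones. The one matched to the Ensembl transcript ENSSSCT00000015220 had a median of 1.38 FPKM over the high libraries. It was at 0.00553 FPKM in the library labelled castrated male 10, where the first isoform stood at 4.01 FPKM. That library also gave 0.438 FPKM for each CPM of CILP2, against 0.208 to 0.314 in the other 19 libraries.

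Both labelled sexes occurred in both groups. CILP2 ran from 0.0777 over 16.6 to 29.9 CPM (lowest, median, highest) in the 10 libraries labelled female and from 0.0257 over 2.68 to 29.4 CPM in the 10 labelled castrated male. On a log2(CPM + 1) scale the means were 3.30 ± 1.67 and 2.02 ± 1.92 (SD, n = 10 each). Their difference of 1.27 was within the spread (two-sided permutation test, 100000 permutations, p = 0.128). Female 10, at 0.0777 CPM, and castrated male 10, at 15.1 CPM, stood at the other sex's level of a locus described below that separates the sexes. Without them, an alternative chosen after seeing the data, the means were 3.65 ± 1.32 and 1.80 ± 1.89 (SD, n = 9 each), with a difference of 1.85 (two-sided exact permutation test, p = 0.0308). After Benjamini-Hochberg adjustment over the 3 relations with sex and age this exact p was 0.0924, which misses the threshold of 0.05. Age and CILP2 on that scale showed no detectable relation over the 20 libraries (Pearson r = 0.018, permutation p = 0.938; Spearman rho = 0.0902, permutation p = 0.704), and r was -0.012 without the 2 animals farthest from the median age. As labelled, the 3 relations of CILP2 with sex and age give Benjamini-Hochberg values of 0.384 for sex and 0.938 for both r and rho. The high group held 6 females and 4 castrated males and the low group 3 and 5 (two-sided Fisher's exact test, p = 0.637), and without the libraries numbered 10 the counts were 6 and 3 against 2 and 5 (p = 0.315). Mean ages were 242 ± 5.77 and 243 ± 4.55 days (SD, n = 10 and 8, two-sided exact permutation test, p = 0.763).

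Depth overlapped between the groups, at 28009303 to 51248122 counts in the high and 25754778 to 43806528 in the low libraries (exact permutation p = 0.798), and mitochondrially encoded loci took 15.5 ± 5.15% and 14.8 ± 4.26% of counts (exact permutation p = 0.782). The libraries numbered 10 went against their labels at loci that separate the sexes. Of these XLOC_042132, without an identifier, stood at 549 to 1224 CPM in the other 9 libraries labelled female and at 0.408 CPM in female 10, and at up to 1.87 CPM in the other 9 labelled castrated male and at 987 CPM in castrated male 10. Castrated male 1 had the highest summed level of a list of macrophage genes, 2202 CPM against 324 to 1666 CPM in the rest of the low group. Of 20 adipocyte marker symbols 14 had a locus, and their summed level was 5465 to 8866 CPM in the high and 5139 to 9375 CPM in the low libraries. No sample of another tissue was compared.

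Animals with more CILP2 in their backfat also had more RNA of the fibrillar collagens of cartilage. Both genes tested for type XI collagen, COL11A2 and COL11A1, and the gene of type II collagen, COL2A1, were higher in the high group, at 14, 3.30 and 4.62 times the low group's fitted level, and 3 loci without a gene symbol joined them. These 6 loci made up 0.0273% of the 21945 loci tested (edgeR quasi-likelihood test, Benjamini-Hochberg adjusted p under 0.05, CILP2 itself not tested), and 0% (0 loci) passed as lower. At an unadjusted p under 0.05, which no multiple-testing correction guards, 633 loci (2.88%) were higher and 796 (3.63%) lower. Other tools counted differently, with 39 higher and 31 lower in DESeq2 and 23 higher and 3 lower in limma-voom with quality weights. In bulk tissue, fewer cells of a type and less RNA per cell cannot be told apart. All levels from here on are CPM scaled by TMM factors, which differ slightly from the plain CPM that chose the groups, and all differences are high minus low on the log2 scale.

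**Figure D2:**
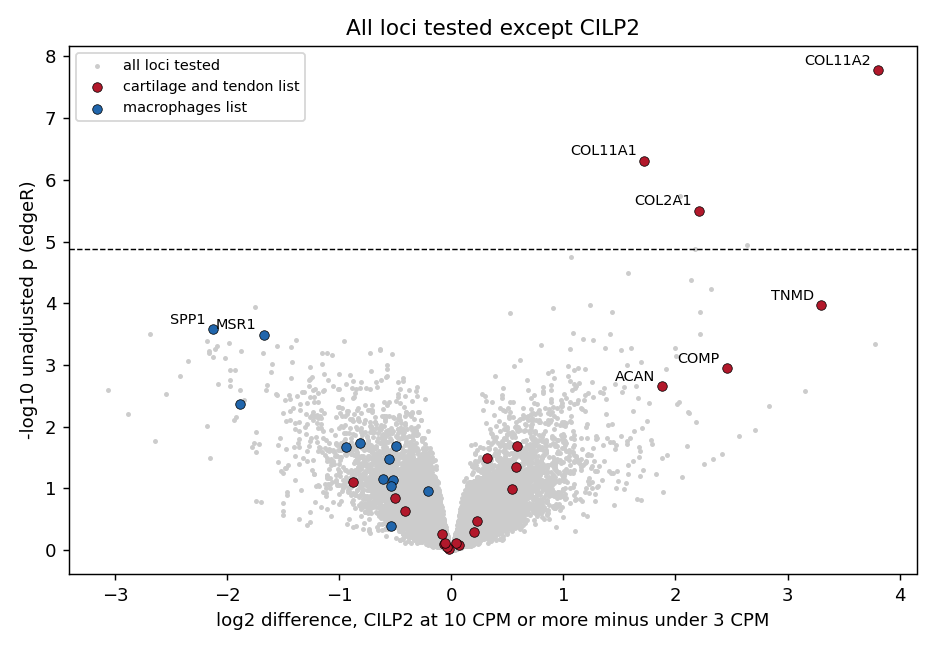
Each of the 21945 tested loci by its log2 difference between the high and low CILP2 libraries and the -log10 of its unadjusted edgeR p, with the cartilage and tendon list in red and the macrophage list in blue. Points above the dashed line have an adjusted p under 0.05: COL11A2, COL11A1 and COL2A1 are there, TNMD, COMP and ACAN lie far to the right below it, and SPP1 and MSR1 lie to the left below it.

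COL11A2 (ENSSSCG00000001473) encodes the alpha-2 chain of type XI collagen, which limits the diameter of cartilage fibrils. It ran from 0.117 over a median of 0.373 to 0.941 CPM in the low libraries and from 1.69 over 4.81 to 11.8 CPM in the high ones. The groups did not overlap, and the low group rested on only 5 to 34 counts per library. The log2 difference was 3.81 (SE 0.42, edgeR adjusted p = 0.000365), higher in 10 of 10 high libraries than in any low one. The 2 libraries left out lay within the high range, at 2.09 CPM in female 2 and 5.06 CPM in castrated male 5.

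COL11A1 (ENSSSCG00000006857), the alpha-1 chain of the same collagen, ran from 3.66 over 7.56 to 11.6 CPM in the low and from 12.7 over 24.8 to 38.1 CPM in the high libraries, again with no overlap. The log2 difference was 1.72 (SE 0.24, edgeR adjusted p = 0.00537). Its level per length, a median of 3.91 FPKM over the high libraries, was above the medians of 1.41 FPKM for COL11A2 and 0.635 FPKM for COL2A1.

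COL2A1 (ENSSSCG00000025523) encodes the single chain of type II collagen, the main fibril of hyaline cartilage. It ran from 0.214 over 0.667 to 1.65 CPM in the low and from 1.60 over 3.50 to 6.40 CPM in the high libraries, and the ranges touched where female 7 of the low group stood just above female 9 of the high group. The log2 difference was 2.21 (SE 0.35, edgeR adjusted p = 0.0174). COL11A1 and COL11A2 passed in each of 18 fits that left out 1 library, and COL2A1 in 16, missing without castrated male 4 (adjusted p = 0.0668) and without castrated male 6 (adjusted p = 0.0676). It also missed without the libraries numbered 10 (adjusted p = 0.0536) and with the summed macrophage level in the model (adjusted p = 0.0979).

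Among the 3 called loci without a symbol, XLOC_015251 (ENSSSCG00000007082) ran from 1.22 over 3.82 to 8.44 CPM in the low and from 8.09 over 16.7 to 21.4 CPM in the high libraries (log2 difference 2.04, SE 0.31, edgeR adjusted p = 0.0132). It passed in all 18 fits that left out 1 library, though not with the macrophage level in the model (adjusted p = 0.0674). XLOC_023190 (ENSSSCG00000020707) ran from 0.0742 over 0.197 to 0.596 CPM and from 0.637 over 1.32 to 2.20 CPM, with no overlap (log2 difference 2.18, SE 0.38, edgeR adjusted p = 0.0479). XLOC_040055, without an identifier, ran from 0 over 0.101 to 0.306 CPM and from 0.148 over 0.811 to 1.42 CPM (log2 difference 2.64, SE 0.46, edgeR adjusted p = 0.0479). The last 2 sat at the threshold: they passed in 5 and 4 of the 18 fits that left out 1 library, and with labelled sex in the model both stood at an adjusted p of 0.0687.

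TNMD (ENSSSCG00000012480) did not pass, yet its groups did not overlap. It ran from 0.0952 over 0.379 to 6.76 CPM in the low libraries and from 7.91 over 15.1 to 31.4 CPM in the high ones (log2 difference 3.30, SE 0.69, edgeR adjusted p = 0.183). The spread within the low group followed its CILP2: TNMD stood at 0.0952 to 0.519 CPM in the 5 libraries with under 1 CPM of CILP2 and at 2.41 to 6.76 CPM in the 3 with 1.5 to 2.51 CPM. Since these steps use the same libraries that the rule ranked, they are a description. Over all 21945 loci, 5 (0.0228%) were higher with no overlap of the groups, namely COL11A2, COL11A1, XLOC_023190, TNMD and LEPR, and 0% were lower with no overlap.

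COMP (ENSSSCG00000013916), given with CILP2 as a marker of the high libraries, ran from 0.408 over 4.34 to 30.4 CPM in the low and from 26.1 over 51.9 to 124 CPM in the high group. The ranges overlapped through castrated male 3 at 30.4 CPM and female 3 at 29.3 CPM, both above castrated male 9 of the high group. The log2 difference of 2.46 (SE 0.65) missed the threshold (edgeR adjusted p = 0.363). In the 5 libraries with under 1 CPM of CILP2, COMP stayed at or below 5.92 CPM, and its main isoform, which carried a mean of 13.5 FPKM of the locus, was at a median of 1.21 FPKM over the low and 18.7 FPKM over the high libraries. ACAN (ENSSSCG00000001832), the core protein of aggrecan, ran from 0.241 over 0.638 to 5.32 CPM and from 2.21 over 4.35 to 11.1 CPM (log2 difference 1.88, SE 0.54, edgeR adjusted p = 0.404). The low library with the most ACAN was female 3, at 5.32 CPM, and castrated male 3 followed at 2.64 CPM.

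**Figure D3:**
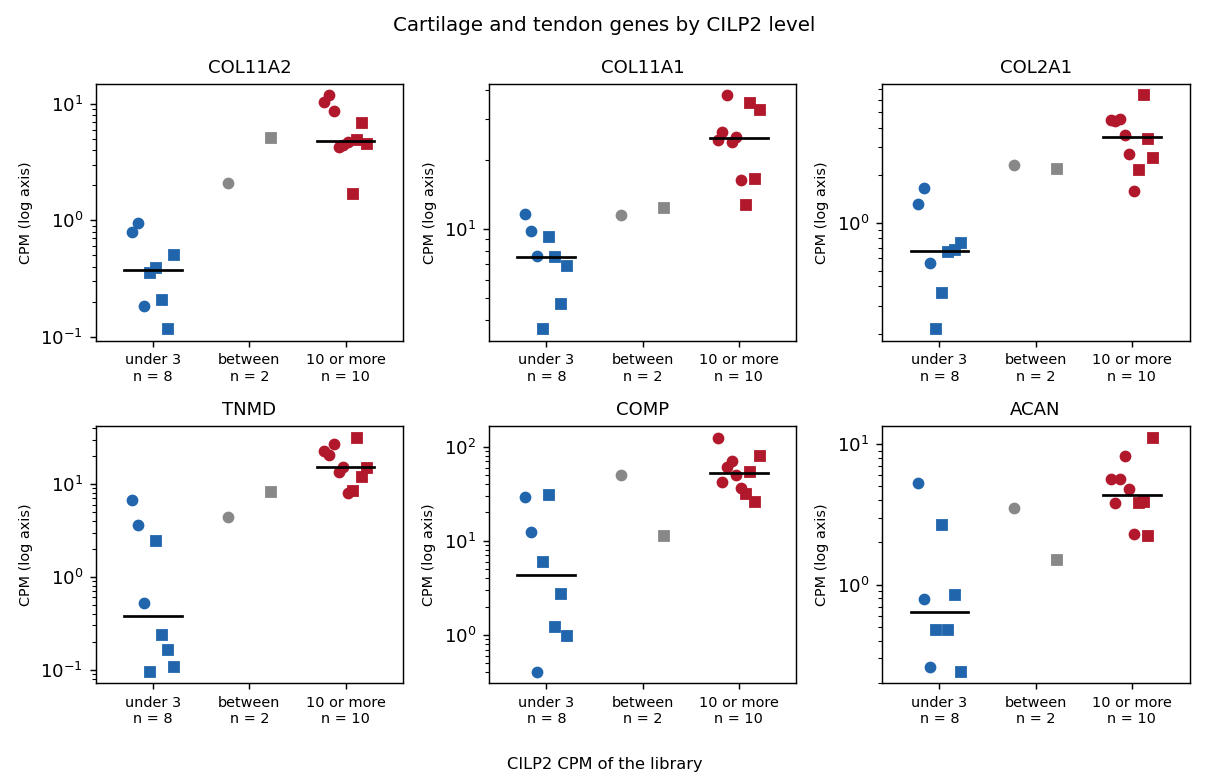
Levels (TMM-scaled CPM, log axes) of 6 cartilage and tendon genes in the 8 low, 2 left-out and 10 high CILP2 libraries, circles for labelled females, squares for labelled castrated males, black bars for the medians of the low and high groups. COL11A2, COL11A1 and TNMD separate the groups fully, while COL2A1, COMP and ACAN overlap at the edge.

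The rest of the cartilage and tendon list did not move as one. Of 39 symbols 20 had a locus, and 22 loci were tested, 14 above 0 and 8 below, with a median of 0.22 against -0.01 over all loci tested, where 10407 were above 0 and 11538 below. Of the 22, 3 passed as higher and 0 as lower, and 9 were higher and 0 lower at an unadjusted p under 0.05, to be read against 2.88% and 3.63% of all loci. Beyond the 6 genes above, those 9 included CHAD (chondroadherin, log2 difference 0.32, SE 0.14), FMOD (fibromodulin, which binds collagen fibrils of tendon, 0.58, SE 0.27) and the minor of 2 loci that bear the name CILP (0.59, SE 0.23), with edgeR adjusted p of 0.707, 0.746 and 0.656. FMOD was no rare transcript, at 66.6 over 133 to 368 CPM in the low and 140 over 214 to 334 CPM in the high libraries.

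Other members gave no difference beyond their spread. CILP itself, the relative of CILP2, had its main locus at 44.9 over 194 to 320 CPM in the low and 65.8 over 98.7 to 225 CPM in the high libraries, with wide overlap (edgeR adjusted p = 0.910). SOX9, the transcription factor that switches on COL2A1, COL11A2 and ACAN in chondrocytes, ran from 0.285 over 0.587 to 1.07 CPM and from 0.196 over 0.594 to 1.05 CPM (edgeR adjusted p = 0.995). Its partner SOX5 stood at medians of 7.49 and 7.70 CPM, and MKX, a tendon homeobox factor, at 0.984 and 1.40 CPM. The cartilage matrilins MATN3 (medians 0.790 and 0.755 CPM) and MATN4 (15.5 and 17.4 CPM), the tendon matrix genes TNC (98.2 and 76.3 CPM), COL12A1 (183 and 189 CPM) and COL14A1 (421 and 498 CPM) and the small proteoglycans KERA (14.6 and 20.8 CPM), OMD (89.8 and 90.6 CPM) and ASPN (118 and 142 CPM at its main locus) overlapped between the groups, low median first. None of these passed in edgeR in the comparison of all high with all low libraries. Summed over the list, the level was 805 to 2692 CPM in the low and 938 to 1948 CPM in the high libraries.

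Genes inside and outside the cartilage list ranked the libraries much as CILP2 did. By Spearman rank correlation with CILP2 over the 20 libraries, given as a description because it reuses the values that formed the groups, the 10 closest loci with a symbol were TNMD (0.949), LEPR (0.931), COL11A1 (0.925), COMP (0.905), COL2A1 (0.895), ANGPTL5 (0.842), COL11A2 (0.835), ACAN (0.800), IRX4 (0.786) and MYO1D (0.782). LEPR (ENSSSCG00000025188), the leptin receptor, ran from 0.134 over 0.455 to 2.1 CPM in the low and from 2.81 over 3.49 to 7.23 CPM in the high libraries, with no overlap (log2 difference 2.32, SE 0.46, edgeR adjusted p = 0.131). ANGPTL5, an angiopoietin-like secreted protein, ran from 0.0804 over 0.50 to 1.72 CPM and from 1.21 over 3.08 to 6.40 CPM (2.21, SE 0.51, edgeR adjusted p = 0.289). Castrated male 2, at 1.21 CPM of ANGPTL5, was the single high library below the highest low one.

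IRX4, an Iroquois homeobox factor, ran from 0.0299 over 0.0745 to 0.779 CPM in the low and from 0.415 over 0.782 to 1.33 CPM in the high libraries (log2 difference 2.0, SE 0.49, edgeR adjusted p = 0.289). The 0.779 CPM belonged to female 10. Without the libraries numbered 10 the difference was 2.70 (SE 0.43) and passed (edgeR adjusted p = 0.0245), while leaving out castrated male 1 as well gave 2.6 (adjusted p = 0.0706). MYO1D, a class I myosin, differed little but evenly, at 13.1 over 15.3 to 20.8 CPM and 16.2 over 22.5 to 29.2 CPM (0.52, SE 0.11, edgeR adjusted p = 0.183). HOXD10, a posterior homeobox gene, was scarce, at 0.0952 over 0.214 to 0.342 CPM and 0.320 over 0.511 to 0.843 CPM (1.24, SE 0.26, edgeR adjusted p = 0.183).

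On the other side stood macrophage genes, none of which passed in the comparison of 10 with 8 libraries. All 12 tested loci of the macrophage list lay below 0, with a median of -0.58 against -0.01 over all loci, and 7 of 12 were lower and 0 higher at an unadjusted p under 0.05, against 3.63% and 2.88% of all loci. The list's summed level ran from 439 over 601 to 861 CPM in the high and from 324 over 882 to 2202 CPM in the low libraries, so both the highest and the lowest library were in the low group. Castrated males 1, 8 and 6, all with under 1 CPM of CILP2, gave the 3 highest sums, 2202, 1666 and 1607 CPM. The lowest sum, 324 CPM, was in female 7, the low library with the most CILP2. Female 2, left out, stood at 1236 CPM and castrated male 5 at 561 CPM.

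SPP1, which encodes the secreted phosphoprotein osteopontin, ran from 29.1 over 176 to 738 CPM in the low and from 26.3 over 50.6 to 161 CPM in the high libraries (log2 difference -2.13, SE 0.48, edgeR adjusted p = 0.289). The scavenger receptor MSR1 ran from 5.05 over 27.0 to 115 CPM and from 7.13 over 13.5 to 18.6 CPM (-1.67, SE 0.39, edgeR adjusted p = 0.289). Both ranges overlapped, and 7 low libraries lay above every high library for MSR1, with female 7 the exception. Of the further genes of smallest p in this direction, NCEH1, a cholesteryl ester hydrolase of macrophages, was at -0.95 (SE 0.23), PHEX, an endopeptidase of bone, at -1.39 (SE 0.33) and C1QL2, a C1q-like secreted protein, at -1.98 (SE 0.47), each with an edgeR adjusted p of 0.289. MMP9, a gelatinase made by macrophages and neutrophils, was at -1.97 (SE 0.56, edgeR adjusted p = 0.404).

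**Figure D4:**
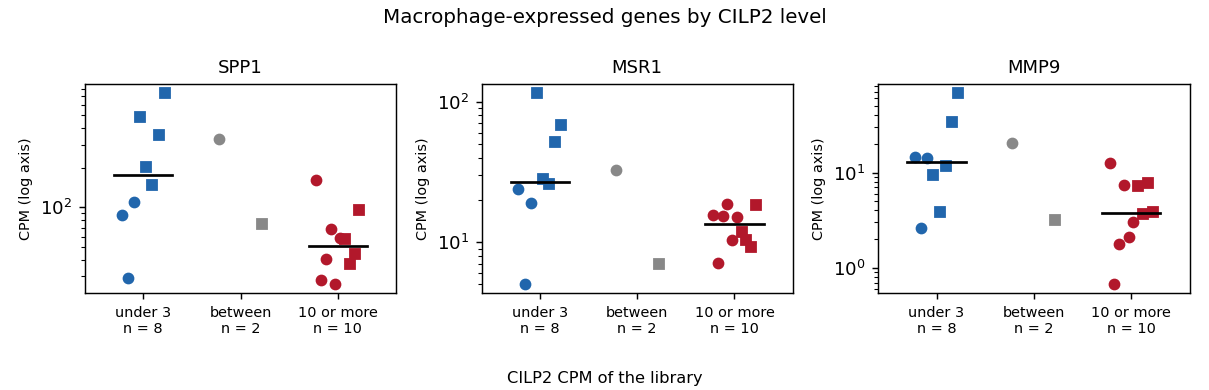
Levels (TMM-scaled CPM, log axes) of SPP1, MSR1 and MMP9 in the 8 low, 2 left-out and 10 high CILP2 libraries, circles for labelled females, squares for labelled castrated males, black bars for the medians of the low and high groups. The low libraries spread from 29.1 to 738 CPM for SPP1, the high ones from 26.3 to 161 CPM, and the ranges overlap in each panel.

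Without castrated male 1, the library of highest macrophage sum, SPP1 was at -1.94 (SE 0.49), MSR1 at -1.26 (SE 0.33) and MMP9 at -2.07 (SE 0.58), with edgeR adjusted p of 0.554, 0.554 and 0.596. With the macrophage level held in the model, the log2 differences of the cartilage collagens were 3.63 (SE 0.46) for COL11A2, 1.53 (SE 0.25) for COL11A1 and 1.94 (SE 0.35) for COL2A1, of which the first 2 passed (edgeR adjusted p = 0.00322 and 0.0432). That model was added after the data were seen, and with it 3 of the 6 loci passed.

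Setting the high group against only the 5 libraries with under 1 CPM of CILP2 gave many more calls. Of 22393 loci tested, 34 were higher (0.152%) and 54 lower (0.241%) in edgeR, and all 6 loci called before were among these 88. The cartilage and tendon list gave 8 of the 34, with TNMD at 6.34 (SE 0.49, edgeR adjusted p = 7.95e-06), COMP at 4.64 (SE 0.57, adjusted p = 0.00141) and ACAN at 3.46 (SE 0.44, adjusted p = 0.00175). COL11A2, COL11A1, COL2A1, FMOD and KERA were the other 5. LEPR (3.08, SE 0.50, adjusted p = 0.0140), ANGPTL5 (3.65, SE 0.51, adjusted p = 0.00409) and MYO1D (0.61, SE 0.12, adjusted p = 0.0363) passed too. IRX4 did not (2.07, SE 0.61, adjusted p = 0.207). Named after their values were seen, SHISA2 (3.81, SE 0.34, adjusted p = 3.65e-05), EMILIN3 (1.67, SE 0.26, adjusted p = 0.00956) and C1QTNF3 (2.06, SE 0.38, adjusted p = 0.0221) were among the higher loci as well. Female 3, castrated male 3 and female 7, left out here, lay between the others for TNMD, at 2.41 to 6.76 CPM. For COMP they stood at 12.3 to 30.4 CPM, above the 5 low libraries, and 2 of them were within the high range. For C1QTNF3 they ran from 9.44 to 119 CPM, against at most 42.4 CPM in the high group. With them kept in the low group C1QTNF3 did not pass (edgeR adjusted p = 0.980). KERA ran from 17.7 to 37.1 CPM in them, against at most 24.2 CPM in the high group, and did not pass with them kept either (edgeR adjusted p = 0.936).

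The 54 lower loci included 36 with a symbol, among them SPP1 (-2.58, SE 0.43, edgeR adjusted p = 0.0149), MSR1 (-2.08, SE 0.32, adjusted p = 0.00956), PHEX (-1.79, SE 0.30, adjusted p = 0.0149), NCEH1 (-1.24, SE 0.21, adjusted p = 0.0149) and C1QL2 (-2.47, SE 0.41, adjusted p = 0.0149). The transcription factor EGR2, an immediate early gene, stood at 26.6 to 71.9 CPM in these 5 low libraries and at 18.1 to 27.7 CPM in the high ones (-1.11, SE 0.17, adjusted p = 0.00853). Of the low libraries left out here, female 3 and castrated male 3 stood at 43.7 and 34.8 CPM of EGR2. Female 7 stood at 8.58 CPM, below every high library. With them kept in the low group EGR2 did not pass (-0.87, SE 0.24, edgeR adjusted p = 0.404). Picked after their values were seen, TM4SF19 (-2.62, SE 0.44), DCSTAMP, a fusion receptor of macrophages and osteoclasts (-2.65, SE 0.47), LGALS3, the lectin galectin-3 (-1.24, SE 0.22), and GRN, progranulin (-0.68, SE 0.14), were lower as well. Of the 12 macrophage loci 2 passed here, SPP1 and MSR1. The 5 low libraries are 4 labelled castrated male and female 10, which stood at the castrated male level of XLOC_042132, while 6 of the 10 high ones are labelled female. XLOC_042132 was itself among the higher loci of this contrast (edgeR adjusted p = 0.0327), so the contrast also called a locus that separates the sexes. It stood at 0.163 to 0.904 CPM in the 5 low libraries and at 0 over 683 to 988 CPM in the high ones. With female 3, castrated male 3 and female 7 kept in the low group it did not pass (edgeR adjusted p = 0.965). The part of sex in the other calls of this contrast was not tested.

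The comparison was also made within each labelled sex. In castrated males 5 loci passed as higher in the 4 high against the 5 low libraries and 0 as lower: IRX4 (3.41, SE 0.45, edgeR adjusted p = 0.00459), COL11A2 (3.83, SE 0.51, adjusted p = 0.00459), COL2A1 (2.77, SE 0.43, adjusted p = 0.0256), COL11A1 (1.93, SE 0.31, adjusted p = 0.0340) and LSAMP, a neural adhesion molecule named after its values were seen (2.13, adjusted p = 0.00459). In the fit without both libraries numbered 10 the count was 6, with COL11A1 no longer among them and POU3F3 and XLOC_020397, both named after their values were seen, added. In females, with 6 high and 3 low libraries, 0 loci passed, and COL11A2 stood at 3.48 (SE 0.59, adjusted p = 0.282), COL11A1 at 1.41 (SE 0.35, adjusted p = 0.466) and COL2A1 at 1.58 (SE 0.47, adjusted p = 0.468). The difference between the sexes was tested by an interaction term, and 0 of 21945 loci passed in edgeR, with 2799 at an unadjusted p under 0.05 and a smallest adjusted p of 0.2292. For SPP1 the values were -0.25 (SE 0.56) in females and -2.72 (SE 0.59) in castrated males, and for MSR1 -0.22 (SE 0.46) and -2.22 (SE 0.47), with interaction adjusted p of 0.281 and 0.278. With labelled sex, as given, in the model, 4 of the 6 loci stayed called: COL11A2 (3.66, SE 0.38), COL11A1 (1.68, SE 0.23), COL2A1 (2.18, SE 0.34) and XLOC_015251 (1.99, SE 0.30).

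Genes of the fat cell itself gave no call. Of 16 adipocyte loci tested 9 were above 0 and 7 below, with a median of 0.01 and 0 at an unadjusted p under 0.05 in either direction. PPARG, the master regulator of adipocytes, ran from 149 over 253 to 392 CPM in the low and from 230 over 309 to 436 CPM in the high libraries (edgeR adjusted p = 0.909). FASN, the fatty acid synthase, had medians of 2446 and 2632 CPM, low median first, SCD, the stearoyl-CoA desaturase, 17936 and 16530 CPM, and PNPLA2, the triglyceride lipase, 586 and 610 CPM. Castrated male 1 of the low group had the least FASN and SCD, at 83.5 and 254 CPM. The lowest high library for both was female 9, at 271 and 2437 CPM. The main of 3 loci of LIPE, hormone-sensitive lipase, stood at 611 and 684 CPM, and COL1A1 was not analysed here. Fatty acid synthesis genes (16 loci, 11 above 0, median 0.05) and lipolysis and oxidation genes (18 loci, 4 above 0, median -0.08) each had 0 loci at an unadjusted p under 0.05.

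General connective tissue genes gave no call either. Other collagens and their processing enzymes had 12 of 28 loci above 0 and a median of -0.06, with COL28A1 (0.88, SE 0.30) and LOXL1 (-0.63, SE 0.29) at an unadjusted p under 0.05. COL3A1, the fibrillar collagen of loose connective tissue, had medians of 11203 and 11023 CPM in the low and high libraries at its main locus. Small leucine-rich proteoglycans and matrix glycoproteins had 11 of 30 loci above 0 (median -0.09), with ANGPTL7, a secreted matrix protein, at 0.95 (SE 0.36) and CTHRC1, a secreted collagen regulator, at -0.59 (SE 0.19). Fibroblast and progenitor markers had 8 of 16 above 0 (median -0.01), and S100A4, a calcium-binding protein of fibroblasts and macrophages, had medians of 35.8 and 23.1 CPM, low median first. Matrix proteases and inhibitors had 7 of 20 above 0 (median -0.11), with the metalloprotease ADAMTS6 at -0.36 (SE 0.14). In signalling, TGF-beta and BMP genes had 12 of 25 loci above 0 (median -0.01), with SMAD1, a BMP signal transducer, at 0.31 (SE 0.09, edgeR adjusted p = 0.441). WNT and hedgehog genes had 10 of 20 above 0 (median 0.00), and 2 secreted inhibitors of WNT lay on opposite sides, SFRP1 at 0.49 (SE 0.18, edgeR adjusted p = 0.588) and SFRP2 at -0.80 (SE 0.32, edgeR adjusted p = 0.660).

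Markers of other tissues that a backfat sample can hold were read beside these. Skeletal muscle genes had 5 of 6 loci above 0 (median 0.11) and summed to 108 to 219 CPM in the high and 99.4 to 274 CPM in the low libraries. CASQ1, the calcium store protein calsequestrin of skeletal muscle, ran from 1.11 over 2.14 to 6.6 CPM in the low and from 2.88 over 4.07 to 7.39 CPM in the high libraries (log2 difference 0.72, SE 0.31, edgeR adjusted p = 0.702). Against the libraries with under 1 CPM of CILP2 it passed as higher (1.40, SE 0.26, edgeR adjusted p = 0.0256), the single skeletal muscle locus to do so, and the part of muscle in that contrast was not tested. Of the skin list 5 loci were tested, 3 above 0, summing to 16.8 to 42.5 CPM and 14.8 to 32.1 CPM, with the keratin KRT8 at 1.92 (SE 0.51, edgeR adjusted p = 0.363). Nerve and Schwann cell genes had 8 of 11 loci above 0 (median 0.16). The neurotrophic coreceptor GFRA3 of the same list was at -1.15 (SE 0.48). Endothelial loci had 7 of 9 above 0 (median 0.03), with FLT4, the lymphatic VEGF receptor, at 0.50 (SE 0.18). Smooth muscle loci had 6 of 9 above 0 (median 0.05), T, NK and B cells 4 of 11 (median -0.15), red cell genes 0 of 3 (median -0.57), cell cycle genes 3 of 12 (median -0.24), interferon-stimulated genes 3 of 10 (median -0.03) and heat shock and immediate early genes 6 of 14 (median -0.06). In the T, NK and B cell list CTLA4, a checkpoint receptor, was at -1.44 (SE 0.48) and NKG7, a granule protein, at -0.67 (SE 0.29). Mitochondrially encoded loci had 8 of 10 above 0 (median 0.06), and X-linked genes with Y copies 3 of 3 (median 0.17), with KDM6A at 0.34 (SE 0.16). None of the genes named from these lists passed in edgeR in the comparison of all high with all low libraries. Of 8 mesothelial symbols 1 had a locus, which summed to at most 1.75 CPM in any high and 0.414 CPM in any low library and was not tested. The part of these cell types in the collagen differences was not tested, apart from the macrophage model above.

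**Figure D5:**
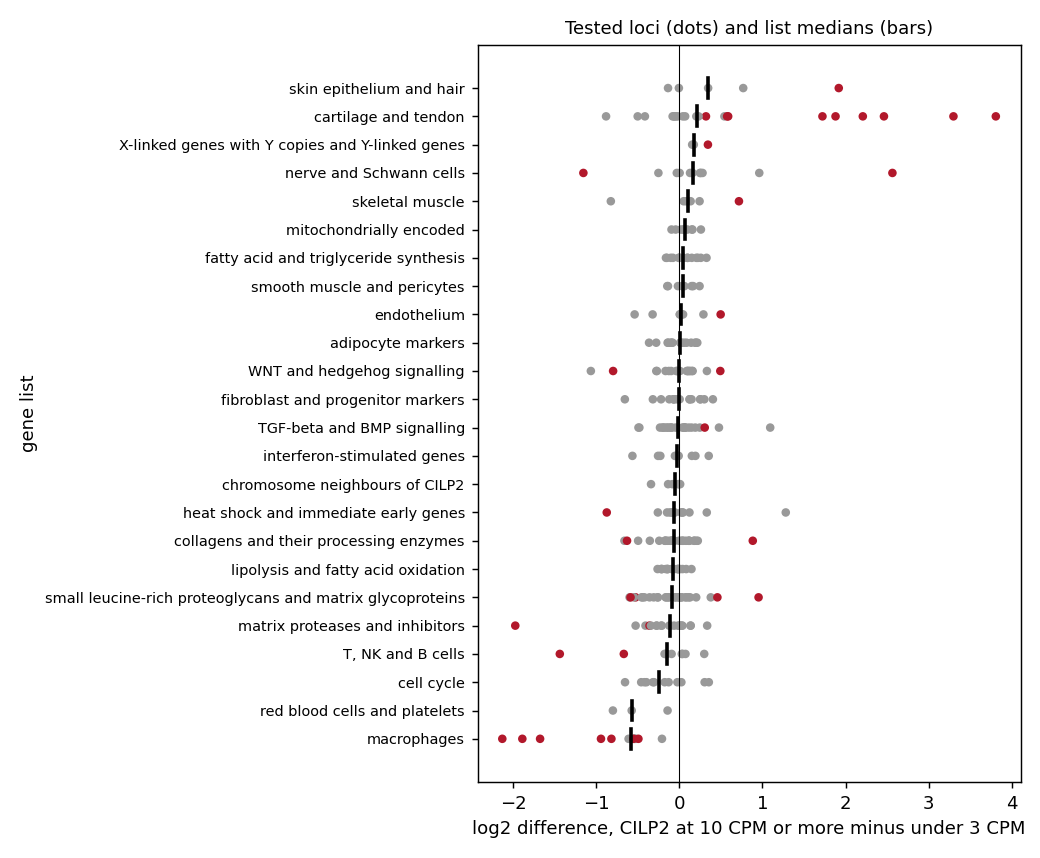
Log2 difference between high and low CILP2 libraries for every tested locus of 24 gene lists, red where the unadjusted edgeR p is under 0.05, with a black bar at each list's median. The cartilage and tendon list reaches 3.81 at COL11A2, and all 12 macrophage loci lie left of 0. No adipocyte, lipolysis or fibroblast locus is red, though S100A4 of the fibroblast list stands at -0.65.

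The genes next to CILP2 on its chromosome gave no call. In RefSeq's annotation of Sscrofa11.1, a later build than the files' Sscrofa10.2, CILP2 lies on chromosome 2 between PBX4 and YJEFN3, and 23 protein-coding genes separate it from COMP on the same chromosome. Of 6 neighbouring loci tested 1 was above 0 and 5 below, with a median of -0.05, 0 at an unadjusted p under 0.05 and 0 called. ATP13A1, an endoplasmic reticulum transporter, had medians of 53.5 and 49.7 CPM, low median first, GMIP, which binds the G protein regulator GEM, 20.9 and 18.4 CPM, GATAD2A, a subunit of the NuRD complex, 69.9 and 73.7 CPM, MAU2, a cohesin loader, 95.4 and 95.7 CPM, and NR2C2AP 9.15 CPM in both. The locus that spans LPAR2 and PBX4 stood at 6.04 and 5.37 CPM.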

How the data were processed

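Polyadenylated RNA of 20 backfat libraries was sequenced as paired 100 bp reads. The build was Sscrofa10.2, and the tools were Cufflinks 2.1.1, TopHat2 2.0.8, Bowtie2 2.1.0.0 and also DESeq2, per the submitters' processing notes, which give no order. How counts were made, with or without strand and multiply matched reads, was not stated there. The authors deposited raw read counts for 23483 loci, and FPKM for the same loci and for 63418 isoforms. Libraries held 25754778 to 51248122 counts, and 1 count was worth 0.0195 to 0.0388 CPM, which limits the precision of loci near 0. No pair of the 190 had identical counts, and each library's counts correlated best with its own FPKM.

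Symbols came from Ensembl identifiers (9360 of 23483 loci) and 318 of 508 list symbols found a locus. Loci that bear 1 symbol more than once were kept apart, and the split of reads among them is uncertain. The groups, the 25 gene lists and the tests were chosen with earlier results of these data known. Each library is labelled with a number of its own and was taken as 1 animal, so p-values measure the spread between animals. Counts were tested with edgeR 4.0.16 (R 4.3.3) quasi-likelihood fits with TMM scaling, filterByExpr for these groups, library sizes over all loci, Benjamini-Hochberg adjustment at 0.05 over the 21945 loci tested and the CILP2 locus left out; the fit was checked on simulated data. Single values were compared by permutation tests, exact where a group held fewer than 10 libraries and with 100000 permutations otherwise. Correlations were tested with 100000 permutations. Genes named were the calls with a symbol, the 5 of smallest p in a direction with under 5 calls, all tested cartilage, tendon and neighbouring loci, up to 4 members of each other list, a fixed set (CILP, COMP, PPARG, FASN, SCD, LIPE, PNPLA2, COL1A1, COL3A1) and the 10 of highest rank correlation with CILP2; names outside this rule are marked, and 1 gene the rule took is not reported here. Genes with an unadjusted p of 0.05 or more are given by level.

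Alternatives were RLE and upper-quartile factors, other filters, libraries sized without mitochondrial loci, sex or age in the model, CILP2 at other limits or as a slope, each library left out, DESeq2 1.42.0, limma 3.58.1 voom with sample weights, and limma-trend applied to log2(FPKM + 0.1) and log2(FPKM + 1) at a mean of at least 0.5 FPKM. Chosen after seeing the data were leaving castrated male 1 and the libraries numbered 10 out together, adding the summed macrophage CPM to the model, and testing CILP2 between sexes without the libraries numbered 10.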

Additional observations from a re-analysis of the deposited data

Results flagged for a closer look

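In 20 cases the highest or lowest library of a group lay far from the rest of its group by Dixon's gap ratio, which chance gives in about 5% of groups. The number of groups examined is not given here, so the 20 cases cannot be set against that rate. In the low group, female 3 was the high library 7 times: ACAN at 5.32 CPM, MATN4 at 34.5 CPM, the main ASPN locus at 279 CPM, OMD at 147 CPM, the lysyl oxidase LOXL1 at 40.3 CPM, ADAMTS6 at 32.4 CPM and the lymphatic receptor FLT4 at 16 CPM. Female 7 was the high library of the low group for the nerve coreceptor GFRA3 at 66.2 CPM and the interferon-stimulated USP18 at 79.9 CPM. Castrated male 1 was high for the endothelial receptor TEK at 224 CPM, castrated male 8 for the epithelial adhesion gene EPCAM at 1.26 CPM and female 10 for IRX4 at 0.779 CPM.

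In the high group, female 1 was high for SPP1 at 161 CPM and female 4 for the heat shock gene DNAJB1 at 1572 CPM and low for the minor ASPN locus at 0.272 CPM. Castrated male 9 was high for COL28A1 at 10.3 CPM and EPCAM at 1.5 CPM, and castrated male 10 was low for the lipase PNPLA2 at 274 CPM. Total counts stood apart in female 1 of the high group, with 51248122, and in female 10 of the low group, with 25754778.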

How the results depend on the processing

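No paired analysis was possible because the replicate numbers follow the order of deposit and pair no animals. Over 35 alternatives the 6 higher calls ranged with the settings. DESeq2 gave 39 higher and 31 lower loci, limma-voom 23 and 3 (XLOC_000211, XLOC_012633 and ENPP1, named after their values were seen), a slope on CILP2 over 20 libraries 14 higher and 0 lower, and limits of 10 or 5 CPM against under 1 CPM 34 and 54 alike, since no library lay from 5 to 10 CPM. The 6 loci called were called in DESeq2, limma-voom, the slope and the contrast with under 1 CPM too, as were all 4 of them that could be tested on FPKM. Leaving out 1 library gave 3 to 13 higher and 0 to 2 lower: 13 higher when female 3 was omitted, 11 when female 10 was, and 3 when castrated male 4 or castrated male 6 was. Lower loci numbered 2 when female 7 was omitted and 1 when castrated male 10 was. Without the libraries numbered 10, and without these and castrated male 1, 1 locus was lower, XLOC_000211, also named after its values were seen. Of 39 genes with an unadjusted p under 0.05 that the naming rule took, 2 turned sign, both with the macrophage level in the model: CTLA4 to 0.023 and NKG7 to 0.16. Of 52 others, given by level, 25 turned sign under some alternative. The difference of CILP2 between labelled sexes had an exact permutation p of 0.0308 once the libraries numbered 10 were left out, and 0.0924 after adjustment. List medians moved for few lists: with the macrophage level in the model smooth muscle was at -0.10, macrophages at 0.12 and T, NK and B cells at 0.54. That model holds the summed level of the macrophage list itself, so the move of this list is built into it. Smooth muscle was at 0.32 against under 1 CPM and at 0.24 in limma-voom. Red cell genes were at -0.19 in limma-voom, -0.12 on both FPKM scales and -0.74 to -0.12 with 1 library left out. Interferon-stimulated genes were at -0.32 without the libraries numbered 10 and at -0.31 to 0.21 with 1 left out. Mitochondrially encoded loci were at 0.24 against under 1 CPM, -0.0793 without the libraries numbered 10, -0.20 without castrated male 1 as well, -0.0502 in limma-voom and -0.0704 to 0.20 with 1 left out. The cause of the other moves was not tested. Depth limits the scarce loci, since COL11A2, COL2A1, XLOC_023190 and XLOC_040055 rested on under 60 counts in each low library.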
